A study of Juglans regia with 12 samples.

Results

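The miR171 family was followed in flower buds of Persian walnut (Juglans regia), where small RNA libraries of an early-flowering type were compared with those of a late-flowering type. The members are the rows of the deposited miRNA table whose matched name is a miR171, which gave 33 of 931 listed mature sequences. Of these, 10 held at least 60 counts over the 6 libraries and are described singly, 2 of them matched to a 5p arm and 8 to a 3p arm or to a name without an arm. The lowest of the 10 held 135 counts and the highest of the other 23 held 47. An arm is the side of the hairpin precursor from which a mature sequence is cut.

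The early-flowering libraries came from buds of a precocious walnut (ZS in the labels) at a stage labelled Early flower, and the late-flowering libraries from a late fruiting walnut (WS) at a stage labelled Late flower. There were 3 miRNA libraries of each type, called early and late libraries 1 to 3 here by their replicate numbers, all from trees grown in a field in Aksu, and no treatment is given. Type and bud stage change together in these labels and cannot be told apart. In whole buds, fewer cells that make a miRNA and less of it per cell cannot be told apart either.

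Plant miRNAs guide Argonaute proteins to nearly complementary mRNAs, which are cut opposite the middle of the miRNA. In Arabidopsis, miR171 targets GRAS transcription factors of the HAIRY MERISTEM group, also called LOST MERISTEMS or SCL6, SCL22 and SCL27, which keep the shoot apical meristem undifferentiated. The same group acts in chlorophyll synthesis, shoot branching and trichome formation, and its proteins bind SPL factors, the targets of the phase change miRNA miR156. The sequence from the 3p arm is the one known to guide this cleavage, and the 5p strand is the partner in the duplex that DICER-LIKE1 releases.

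The 10 described sequences are all 21 bases long and fall into 4 groups by seed, which is bases 2 to 8 and is printed in capitals. They are shown because the groups below are defined by single bases in them, and they are written 5′ to 3′ as DNA letters, as deposited. The first 2 are the 5p-matched sequences, the next 2 share the seed GATTGAG and the last 6 share the seed TGAGCCG.
jre-MIR171_2-10: tATTGGCCtggttcactcaga
jre-MIR171_2-11: cGATGTTGgtgtggttcaatc
jre-MIR171_2-1: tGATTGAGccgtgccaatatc
jre-MIR171_1-9: tGATTGAGccgtgccaatatt
jre-MIR171_1-2: tTGAGCCGtgccaatatcaca
jre-MIR171_2-7: tTGAGCCGtgccaatatcacg
jre-MIR171_1-13: tTGAGCCGtgccaatatcact
jre-MIR171_2-2: tTGAGCCGcgccaatatcact
jre-MIR171_2-3: tTGAGCCGcgtcaatatctcc
jre-MIR171_1-12: tTGAGCCGcgtcaatatctct

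The GATTGAG and TGAGCCG groups are the same core in 2 registers. jre-MIR171_2-1 starts 3 bases before jre-MIR171_1-2, and all 18 bases of their overlap match. Within the TGAGCCG group, positions are counted from 1 at the 5′ end and substitutions are given against jre-MIR171_1-2, its most abundant sequence over all 6 libraries. jre-MIR171_2-7 differs by A21G alone and jre-MIR171_1-13 by A21T alone. jre-MIR171_2-2 carries T9C and A21T. jre-MIR171_2-3 carries T9C, C11T, A19T and A21C, and jre-MIR171_1-12 carries the first 3 of these with A21T. In the GATTGAG group, jre-MIR171_1-9 differs from jre-MIR171_2-1 by C21T. None of these 4 seeds occurred in a listed sequence outside miR171 (0 rows for each seed).

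The 5p-matched sequences were set against the others as duplex strands with 3′ overhangs of 2 bases. In this geometry jre-MIR171_2-10 paired at 17 of 19 positions with jre-MIR171_2-1, 15 as Watson-Crick and 2 as G:U pairs, and at 6 or 7 positions with the TGAGCCG group. jre-MIR171_2-11 paired at 18 of 19 positions with each of the 6 TGAGCCG sequences and at 8 positions with those of the GATTGAG group. Its count of Watson-Crick pairs was 14 with jre-MIR171_2-2 and 13 with the other 5. So each 5p sequence has its complement in a different register group. No precursor was placed on a genome here, and pairing is a property of the letters, not a sign of common origin.

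The 3 early-flowering libraries held 309697, 611620 and 646408 counts over all listed miRNAs, and the 3 late-flowering libraries 614838, 447102 and 473151. Reads that matched no listed miRNA are outside these totals, so the full depth is unknown. miR171 made up 0.828%, 1.39% and 1.80% of them in the early libraries and 1.09%, 0.887% and 0.677% in the late ones. The floor of 3 counts is 4.76 to 10.3 CPM, counts per 1000000 of a library scaled by the trimmed mean of M-values (TMM), and covers counting error only. Since no label ties the replicates to separate trees, the spread behind each p-value may be technical only.

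jre-MIR171_2-10, matched to csi-miR171f-5p, was the most abundant member by far, with 71.6% of the family's 36559 counts and 98.6% of those on 5p-matched sequences. It ranked from 11 to 38 among all listed miRNAs, depending on the library. Its level was 6251, 10156 and 14161 CPM in early libraries 1 to 3, and 8433, 5459.5 and 3498 CPM in late libraries 1 to 3. The groups overlapped, since late library 1 stood above early library 1. The means were 10189 ± 3955 and 5797 ± 2485 CPM (SD, n = 3 each), a log2 fold change of 0.81 with a 95% interval of −0.09 to 1.71 (edgeR adjusted p = 0.174). The log2 value was 0.36 without early library 3, 0.53 without late library 3 and 1.18 without late library 1. At least 1817 counts stood behind each value, and the values of a type still spread by more than 2 times.

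jre-MIR171_2-11, the other 5p-matched sequence, rose in early-flowering buds. It stood at 89.4, 158 and 219 CPM in the early-flowering libraries and at 72.0, 40.8 and 41.1 CPM in the late-flowering ones, so the groups did not overlap. The log2 fold change was 1.61 (SE 0.41, edgeR adjusted p = 0.0371), from means of 155.6 ± 64.9 and 51.3 ± 17.9 CPM (SD, n = 3 each). It missed the threshold in 6 of 16 alternatives. The edgeR adjusted p was 0.105 without early library 2 and 0.0948 without early library 3. It was 0.0507, 0.157 and 0.151 when late library 1, 2 or 3 was left out, in that order, and 0.0747 with the replicate number as a block.

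jre-MIR171_2-2, the one described sequence with T9C but not C11T, also rose. Its level was 193, 269.5 and 292 CPM in early-flowering buds against 98.3, 81.5 and 63.5 CPM in late-flowering buds. Every early library stood above every late one. The fold change was 3.10, or 1.63 on the log2 scale, with a 95% interval of 0.95 to 2.32 (SE 0.30, edgeR adjusted p = 0.0140). It missed the threshold in 3 of 16 alternatives, at an edgeR adjusted p of 0.0601 without early library 2, 0.0664 without late library 2 and 0.0972 without late library 3. Its log2 value stayed between 1.36 and 1.79 over the left-out libraries.

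jre-MIR171_2-3, which has C11T and A19T as well as T9C, lay on the other side. It stood at 189, 123 and 157.1 CPM in early-flowering buds and at 274, 292 and 314 CPM in late-flowering buds, with no overlap. The means were 156.3 ± 33.4 and 293 ± 20.1 CPM (SD, n = 3 each), and the log2 fold change was −0.91 with a 95% interval of −1.52 to −0.31. The edgeR adjusted p was 0.0591 and missed the threshold of 0.05. It passed in 5 of 16 alternatives, with an adjusted p of 0.0296 by DESeq2, 0.0427 with total counts, 0.0494 with TMM scaling that left out the most abundant sequence, 0.0478 with a filter of 10 CPM in 3 libraries and 0.0244 without early library 1. Over all 16 the adjusted p ran from 0.0244 to 0.199.

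jre-MIR171_1-12, which differs from jre-MIR171_2-3 at base 21 only, was near the lower end of what was described. Its counts were 15, 25 and 22 in early-flowering libraries and 11, 22 and 40 in late-flowering ones, or 51.6, 40.8 and 34.9 CPM against 19.3, 47.2 and 74.8 CPM. The late-flowering values spanned the early-flowering ones on both sides. The log2 fold change was −0.17 (SE 0.49, edgeR adjusted p = 0.816) and changed sign without late library 3, at 0.24, and with limma-trend, at 0.0158.

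The 3 remaining TGAGCCG sequences, which lack T9C, did not pass. jre-MIR171_1-2 stood at 599, 1060.1 and 1414 CPM against 962, 753 and 521 CPM (log2 0.46, SE 0.37, edgeR adjusted p = 0.367). Its log2 value was 0.0087 without early library 3 and 0.71 without early library 1. jre-MIR171_2-7, which differs from it in the last base only, stood at 629.5, 724 and 876 CPM against 732, 564 and 529 CPM. Its log2 fold change was 0.29 (SE 0.26, edgeR adjusted p = 0.417), and it was −0.0102 without early library 3. In both sequences the highest value was that of early library 3, and the groups overlapped. The count ratio of jre-MIR171_2-7 to jre-MIR171_1-2 inside a library was 1.05, 0.683 and 0.620 in the early libraries and 0.761, 0.749 and 1.01 in the late ones, with no separation of the types. jre-MIR171_1-13, which ends in T, stood at 58.5, 129 and 111 CPM against 68.5, 85.8 and 52.3 CPM (log2 0.55, edgeR adjusted p = 0.283). Its log2 value was 0.32 without early library 2 or late library 3 and 0.33 without early library 3.

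In the GATTGAG register, jre-MIR171_2-1 held 29.7% of the 3p-matched or armless counts pooled over the 6 libraries, close to jre-MIR171_1-2 (2972 against 2892 counts). It was the highest of them in each late library, while jre-MIR171_1-2 was above it in each early library. It stood at 595, 1034 and 1032 CPM in the early libraries and 1030.4, 1062 and 811 CPM in the late ones. Apart from early library 1, 5 libraries lay within 811 to 1062 CPM. Early library 1 had the fewest counts over all listed miRNAs and 173 on this sequence, and the cause of its lower level was not tested. The log2 fold change was −0.12 with a 95% interval of −0.77 to 0.52 (edgeR adjusted p = 0.764), and without early library 1 it was 0.0532. jre-MIR171_1-9 stood at 55.0, 84.9 and 52.4 CPM against 42.1, 42.9 and 31.8 CPM. Its groups did not overlap, but its log2 fold change of 0.73 (SE 0.33) did not pass (edgeR adjusted p = 0.156) and was 0.43 without early library 2.

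**Figure D1:**
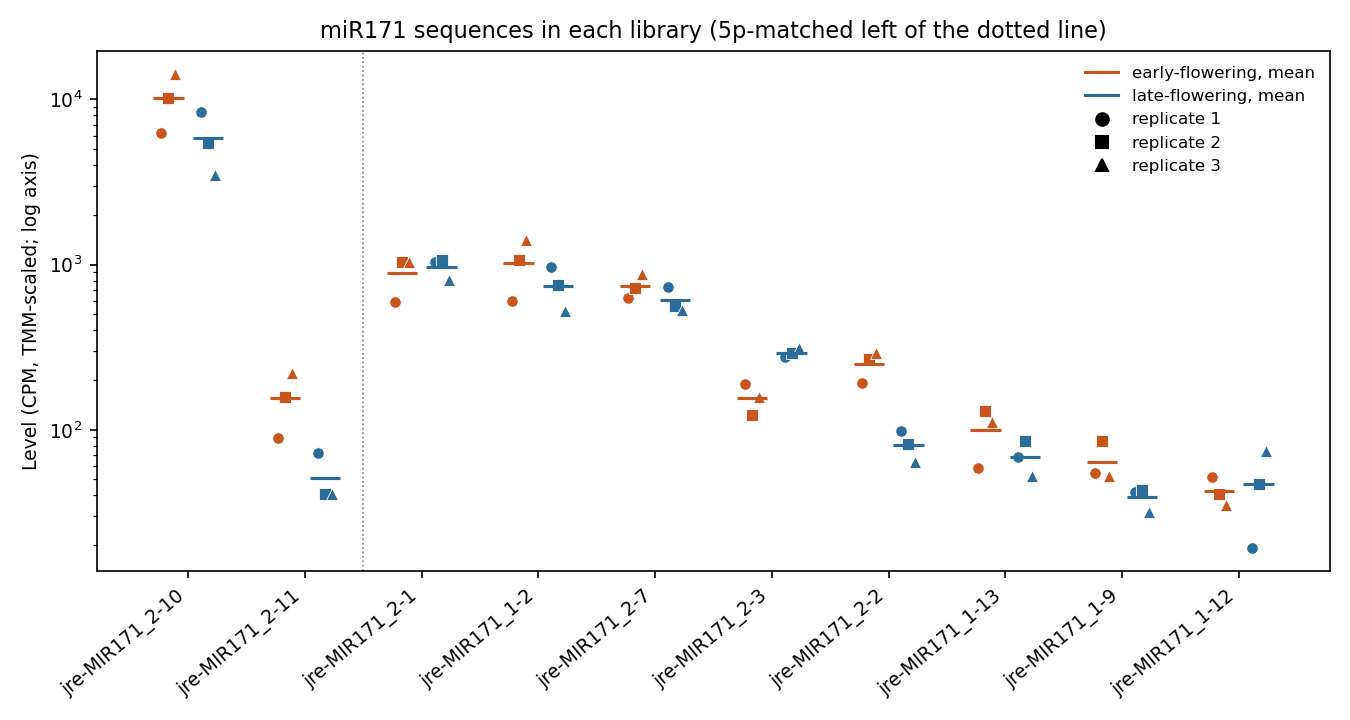
Level of each of the 10 described miR171 sequences in each library, in TMM-scaled CPM on a log axis; points are libraries, with replicate number by shape, and lines are group means. jre-MIR171_2-2 and jre-MIR171_2-11 stand higher in every early-flowering library, jre-MIR171_2-3 stands lower in every one, and jre-MIR171_2-10 overlaps between the types. jre-MIR171_1-9, which did not pass the threshold, also stands higher in every early-flowering library.

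Levels among the 3p-matched or armless sequences fell into steps. jre-MIR171_2-1, jre-MIR171_1-2 and jre-MIR171_2-7 averaged 887 ± 253, 1024 ± 409 and 743 ± 124 CPM in early-flowering buds (SD, n = 3 each). The SDs are over libraries that these neighbours share, and the neighbours were not tested against each other. In late-flowering buds they averaged 968 ± 137, 746 ± 220.4 and 608 ± 108 CPM. jre-MIR171_2-3 and jre-MIR171_2-2 followed, and changed places between the types. In the early libraries jre-MIR171_2-2 averaged 251 ± 52.1 CPM and jre-MIR171_2-3 156.3 CPM, and in the late libraries the averages were 81.1 ± 17.4 and 293 CPM. jre-MIR171_1-13, jre-MIR171_1-9 and jre-MIR171_1-12 were the lowest of the described sequences in early-flowering buds, at 99.5 ± 36.7, 64.1 ± 18.1 and 42.5 ± 8.46 CPM. In late-flowering buds they averaged 68.9 ± 16.8, 38.9 ± 6.22 and 47.1 ± 27.7 CPM, beside jre-MIR171_2-2 at 81.1 CPM.

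Of the 33 members, 11 passed the filter on low counts and were tested, namely the 10 described sequences and jre-MIR171_2-16. Of these 11, 2 rose, 0 fell and 9, jre-MIR171_2-16 among them, did not pass. Over all 243 tested miRNA sequences, 4.94% were called higher in early-flowering buds and 6.58% lower. jre-MIR171_2-16 passed the filter only through the early libraries, where it is high, and is left out of the counts in the rest of this paragraph. Of the 10 described members, 3 were higher in every early-flowering library than in any late-flowering one and 1 was lower, against 19.8% and 17.7% of all tested sequences (37.4% in either direction). The fold change was positive for 7 of the 10 and negative for 3, with a median of 0.51 on the log2 scale. The median over all tested sequences was 0.13, and 138 of them were positive. TMM without the most abundant sequence lowered that median by −0.115, and no scaling changed the sign of the fold changes of jre-MIR171_2-2, jre-MIR171_2-11 or jre-MIR171_2-3.

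**Figure D2:**
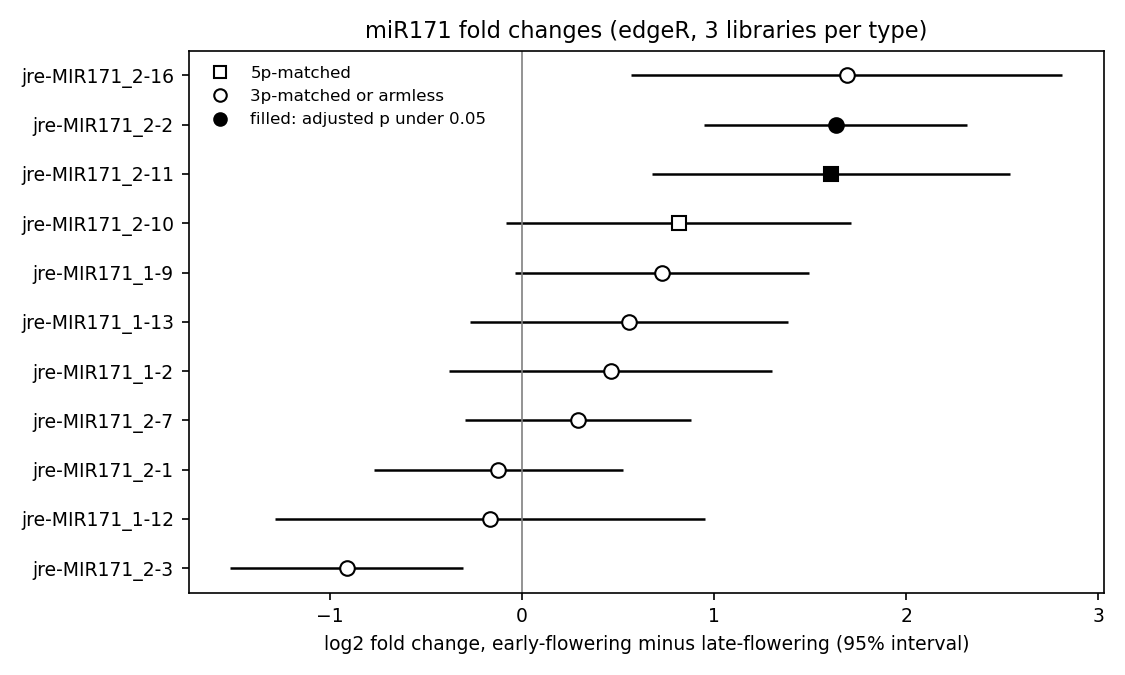
Log2 fold change of each of the 11 tested miR171 sequences, early-flowering minus late-flowering, with 95% intervals from edgeR; squares are 5p-matched and circles 3p-matched or armless sequences. Filled symbols mark the 2 with an adjusted p under 0.05, jre-MIR171_2-2 at 1.63 and jre-MIR171_2-11 at 1.61, while jre-MIR171_2-3 lies at −0.91 with an interval below 0. The intervals are not adjusted for the number of sequences tested. jre-MIR171_2-16, at 1.69, entered the test only through its early counts and is shown as a description.

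When counts were summed per arm, neither sum passed. The 5p-matched sum, which is mostly jre-MIR171_2-10, averaged 10355 ± 4022 CPM in early-flowering and 5857 ± 2501 CPM in late-flowering buds (SD, n = 3 each). Its log2 fold change was 0.82 (SE 0.39, edgeR adjusted p = 0.188), and it passed without early library 1 at 1.07 (edgeR adjusted p = 0.0288). The 3p-matched or armless sum averaged 3349 ± 802 and 2913 ± 432 CPM, a log2 fold change of 0.20 with a 95% interval of −0.33 to 0.74 (edgeR adjusted p = 0.545). Without early library 3 that value was −0.117. Of 57 arm sums of all families tested, 12.3% passed. The fold changes of jre-MIR171_2-2 and jre-MIR171_2-3 had opposite signs, but these sequences held only 5.32% and 6.88% of the counts in the 3p-matched or armless sum. Most of that sum came from jre-MIR171_2-1 (29.7%), jre-MIR171_1-2 (28.9%) and jre-MIR171_2-7 (21.4%). What each sequence adds to the result of the sum was not tested.

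The ratio of 3p-matched or armless to 5p-matched counts does not depend on scaling. It was 0.389, 0.342 and 0.281 in the early libraries and 0.388, 0.542 and 0.690 in the late libraries. The 5p side was thus the more abundant in all 6 libraries. On the log2 scale it averaged −1.58 ± 0.24 in the early and −0.93 ± 0.42 in the late libraries (SD, n = 3 each), a difference of −0.65 with an exact two-sided permutation p of 0.2. Early-flowering replicate 1 and late library 1 were nearly equal. With only the rows of at least 60 counts, the ratio was 0.374, 0.336 and 0.276 against 0.379, 0.533 and 0.677 (exact two-sided permutation p = 0.1). The groups then did not overlap, so the overlap over all rows rests on the low-count rows. With jre-MIR171_2-1 over its complement jre-MIR171_2-10 alone, the ratio was 0.0952, 0.102 and 0.0729 against 0.122, 0.195 and 0.232. These groups did not overlap, and the difference in mean log2 ratio was −0.99 (exact two-sided permutation p = 0.1, the smallest that 3 against 3 libraries allow). For jre-MIR171_2-11 over jre-MIR171_2-2 the ratio was 0.464, 0.588 and 0.750 against 0.732, 0.500 and 0.647, with overlapping groups. This pair was not among the planned tests and was not tested, and both its sequences were called higher. jre-MIR171_2-11 pairs at 18 of 19 positions with the other described TGAGCCG sequences as well.

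Within the 3p-matched or armless counts, jre-MIR171_2-2 held 7.80%, 7.62% and 7.23% in the early libraries and 2.98%, 2.73% and 2.60% in the late ones. The share of jre-MIR171_2-3 was 7.66%, 3.46% and 3.89% against 8.30%, 9.76% and 12.8%. Among early-flowering libraries, replicate 1 had the highest share of jre-MIR171_2-3, close to late library 1. The 5 described sequences with neither T9C nor C11T in the shared core held 78.4% to 86.3% in the early libraries and 79.5% to 85.9% in the late ones. The count ratio of jre-MIR171_2-2 to jre-MIR171_2-3, picked after their values were seen and not tested, was 1.02, 2.20 and 1.86 in the early libraries and 0.359, 0.279 and 0.202 in the late ones.

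**Figure D3:**
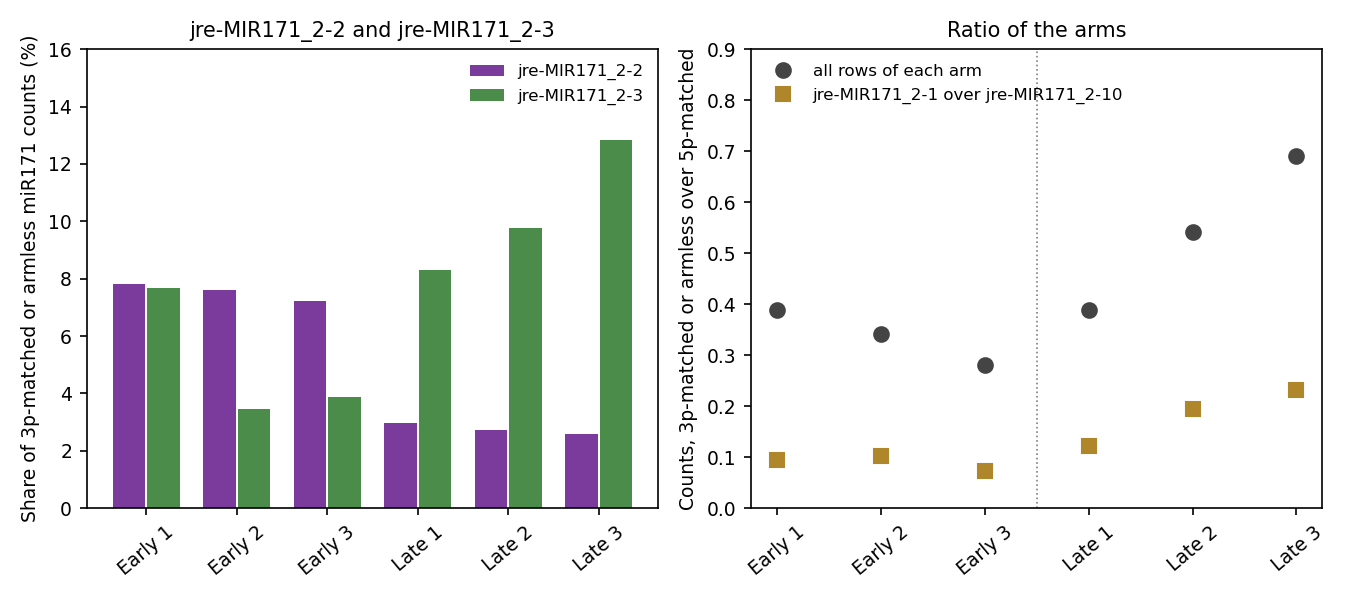
Left, share of jre-MIR171_2-2 and jre-MIR171_2-3 in the 3p-matched or armless miR171 counts of each library (percent); right, ratio of 3p-matched or armless to 5p-matched counts in each library, over all rows and for the row of each arm with the most counts over all libraries. jre-MIR171_2-2 holds over 7% in each early-flowering library and under 3% in each late-flowering one, and every ratio is below 0.7.

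Whether a sequence differed from the rest of its own family was tested across the whole table with edgeR's test of differential usage, which takes families in the place of genes and sequences in the place of exons. The family value takes in both arms, and the 5p-matched jre-MIR171_2-10, with 71.6% of the family's counts, lay near it (log2 difference 0.17). A distance from that value is thus largely a distance from this 5p sequence. jre-MIR171_2-3 lay furthest from the family value (log2 difference −1.56, unadjusted p = 0.00126, edgeR adjusted p = 0.0702). It passed when early library 1 was left out, at −1.97 (edgeR adjusted p = 0.000908), and when late library 1 was, at −1.88 (edgeR adjusted p = 0.0426). The log2 difference was 0.99 for jre-MIR171_2-2 and 0.96 for jre-MIR171_2-11, with an edgeR adjusted p of 0.436 for both. By this test 0 of 11 miR171 sequences and 0 of all 233 tested passed, which is 0% called. At an unadjusted p under 0.05 it was 3 of the 11, against 26 of the 233 (11.2%). When usage was tested within each arm, an alternative chosen after the data were seen, the log2 differences among 3p-matched or armless sequences were 1.43 for jre-MIR171_2-2 (edgeR adjusted p = 0.104) and −1.12 for jre-MIR171_2-3 (edgeR adjusted p = 0.262). A change in the composition of the family thus did not pass with all 6 libraries.

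**Figure D4:**
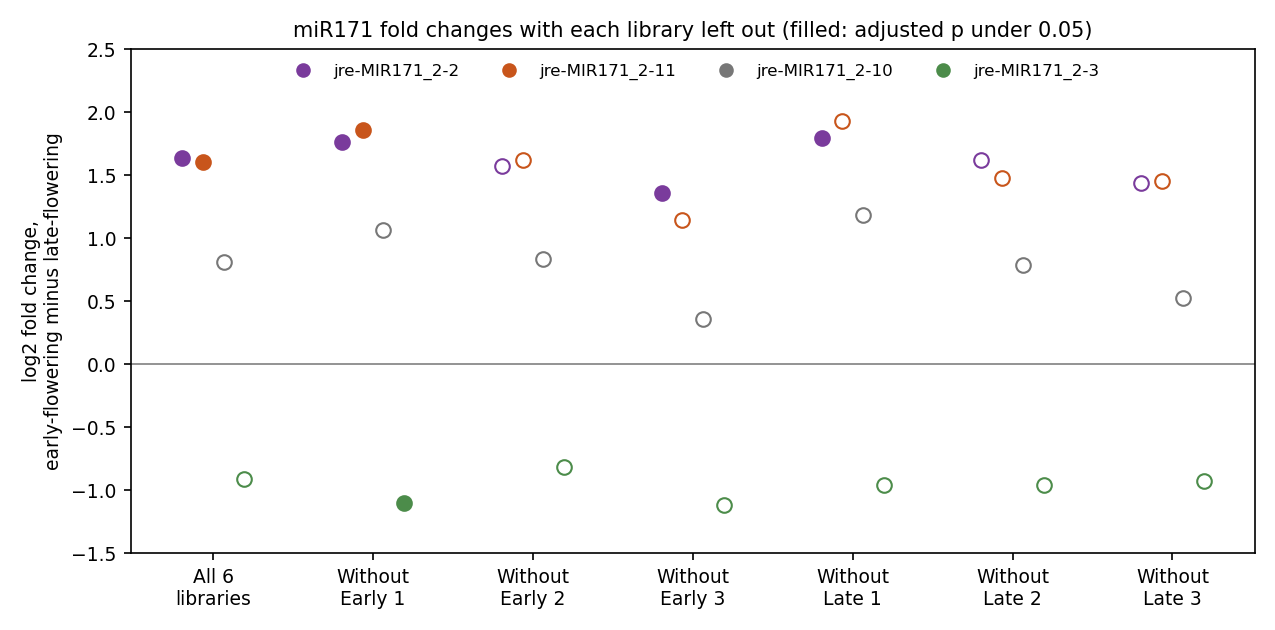
Log2 fold change of 4 miR171 sequences with all 6 libraries and with each library left out; filled circles have an edgeR adjusted p under 0.05. The signs stay the same in all 7 fits, while the calls of jre-MIR171_2-2, jre-MIR171_2-11 and jre-MIR171_2-3 depend on the libraries kept. jre-MIR171_2-3 passes only without early library 1.

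The 23 members with fewer than 60 counts held 243 counts together, or 1 to 47 each, and 15 of them had fewer than 10. The most abundant, jre-MIR171_2-16, carries the TGAGCCG seed and was the only one tested. Its counts were 6, 12 and 18 in early-flowering libraries and 4, 4 and 3 in late-flowering ones, so the late-flowering values lie at or just above the floor of 3. It entered the test only through its early counts, so its log2 fold change of 1.69 (SE 0.49, edgeR adjusted p = 0.0591) is given as a description and not as a result. Over all members, the TGAGCCG seed occurred in 13 sequences with 6781 counts and the GATTGAG seed in 5 sequences with 3152 counts. Some members differ by 1 base, and the sources used here do not say how reads with mismatches were assigned, so counts may be shared between such pairs. Joining near-identical sequences took jre-MIR171_1-9 into jre-MIR171_2-1, jre-MIR171_1-13 into jre-MIR171_1-2 and jre-MIR171_2-16 into jre-MIR171_2-7. No row was joined to jre-MIR171_2-2 or jre-MIR171_2-11, so this step does not bear on counts they may share with others.

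Outside the family, the rows whose pattern over the 6 libraries lay closest to jre-MIR171_2-10 were jre-MIR172-5, matched to bra-miR172d-5p, jre-MIR164_2-3, matched to pab-miR164a, and jre-MIR1509-1, matched to mdm-miR7122b. Their root-mean-square differences in centred log2 CPM were 0.215, 0.235 and 0.243, against a median of 0.798 over 232 rows. Those closest to jre-MIR171_2-1 were jre-MIR858-3, jre-MIR396-6 and jre-MIR164-2, at 0.142, 0.190 and 0.206 (median 0.612). Among other miRNAs of meristem and organ boundary (miR164, miR165, miR166, miR394 and miR396), 0 of 53 tested sequences rose and 1 fell, and their median log2 fold change was 0.33. Among miR156, miR157 and miR172, which set the phase change, 3 of 35 rose and 11 fell (median log2 fold change −1.004). Neither list was split by family, so these values do not say which families rose or fell. Over all 243 tested sequences 4.94% were called higher and 6.58% lower, with a median of 0.13. The mRNA table pairs its gene IDs with no names, so levels of the GRAS targets were not analysed here.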

How the data were processed

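The deposited miRNA table holds raw counts per mature sequence and library, with a matching miRNA name of another species, per the file headers. The submitters' processing notes name FastQC, HISAT2, Cufflinks and DESeq2 without a role. Per the labels' protocols, all samples, the miRNA ones included, went through poly(A) selection and a stranded mRNA kit; no separate preparation of small RNA is described, so the origin of these counts is documented only in part. For the mapping of small RNA reads, its mismatch setting and the genome build, no source used here gives details. Samples were grouped by their titles. The members, lists and tests were chosen with earlier results of these data known.

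Counts of all 931 sequences were filtered with filterByExpr (minimum count 10), scaled by TMM and fitted with edgeR 4.0.16 (R 4.3.3; robust quasi-likelihood on walnut type). Benjamini-Hochberg adjustment ran over all 243 tested sequences. Standard errors are the absolute log2 fold change divided by the root of the F statistic. Arm sums used the same scaling. Differential usage used diffSpliceDGE. Members with at least 60 counts were named; for the most abundant of each arm, the 3 closest rows outside the family were named. Alternatives covered scaling, filters, DESeq2 1.42.0, limma 3.58.1, merging, arm assignment, the replicate number as a block and single libraries left out. The fits were run on counts simulated from the same model, which cannot show how they handle the real spread between libraries. Replicates of a type differed beyond sampling noise (chi-square per degree of freedom 32.8 to 150.5). The mRNA table was not used.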

Additional observations from a re-analysis of the deposited data

How the results depend on the processing

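The count of 2 miR171 sequences past the threshold was within 1.5 times in 10 of 16 alternatives. It was 1 with the replicate block and 0 to 3 over the left-out libraries. It was 0 when early library 2, late library 2 or late library 3 was left out, and 1 when early library 3 or late library 1 was. The cause was not tested. The usage count was 0 in 12 of 14 alternatives, the replicate block among them, and 0 to 1 over the left-out libraries. The 5p sum kept its sign in 17 alternatives (0.367 to 1.191 over the left-out libraries; 1.071 without early library 1). The 3p-matched or armless sum ran from −0.1168 to 0.3489. The difference in log2 ratio of the arms stayed negative, at −0.8713 to −0.4552 over the left-out libraries. Among sequences that did not pass, signs changed for jre-MIR171_1-12 (−0.5489 to 0.2399 over the left-out libraries; 0.01578 with limma-trend), jre-MIR171_2-1 (−0.405 to 0.0532) and jre-MIR171_2-7 (−0.01022 to 0.4418). Arms set by a shared run of 7 bases, the miR479 rows added, usage within the arm and TMM over all listed sequences were chosen after the data were seen. With the replicate block the arm sums were 0.8386 and 0.1839. Same-numbered libraries showed no shared deviation (r across sequences −0.098, −0.076 and −0.34).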

Other observations

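The deposited family column puts 2 further sequences with miR171, both matched to miR479 by name. jre-MIR171_2-4, matched to aof-miR479, held 601 counts. It stood at 282, 75.1 and 141 CPM in early-flowering buds and at 332, 161 and 224 CPM in late-flowering buds, with overlapping groups. Its log2 fold change was −0.55 with a 95% interval of −1.67 to 0.57 (edgeR adjusted p = 0.418). The other, jre-MIR171_2-15, held 7 counts and was not tested. With both rows added, the log2 fold change of the 3p-matched or armless sum was 0.16.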
